A study of Mus musculus with 6 samples.

Results

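Laminins, nidogens and integrins are the proteins through which cells build a basement membrane and hold on to it. Here the genes examined were the protein-coding rows of the count table named as laminin alpha, beta or gamma chains, nidogens, or integrin alpha or beta chains, together with fibronectin (*Fn1*), dystroglycan (*Dag1*), *Bcam*, *Ntng1* and *Ntng2*. The name rule gave 48 of the 54532 genes in the table, among them 11 laminin chains, 2 nidogens, 18 integrin alpha chains and 9 integrin beta chains. It also took in 3 genes named after integrins that encode binding proteins and not subunits (*Itgb1bp1*, *Itgb1bp2* and *Itgb3bp*), which are reported apart. Of the 48 genes, 44 had enough counts to be tested.

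The RNA came from whole cerebella of mice at postnatal day 1, with 3 control libraries labelled Tox3f/f, littermates that carry the floxed *Tox3* allele without Cre, and 3 mutant libraries labelled Nestin-cre;Tox3f/f. Nestin-cre expresses Cre recombinase in neural progenitors from before birth, so neurons and glia of the cerebellum derive from cells that had Cre, whereas meninges, vessels and microglia largely do not. All mutants and no control carried the transgene, so an effect of Nestin-cre itself and an effect of the *Tox3* deletion cannot be told apart. In bulk RNA, fewer cells of a type and less RNA per cell cannot be told apart either. The labels do not say whether each library came from 1 animal.

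Each library held 15391854 to 17178478 counts, and 3 counts corresponded to 0.173 to 0.196 CPM (counts scaled by the normalized library total). The *Tox3* count, taken over all exons, overlapped between groups at 63.0 to 64.4 CPM in controls and 55.3 to 63.2 CPM in mutants, and does not check a deletion of part of the gene. *Atoh1*, which marks granule neuron progenitors (GNPs), had 481 to 501 counts in controls and 4 to 10 in mutants. Animals of both sexes were present, since control 1, mutant 1 and mutant 3 had 68.6 to 94.5 CPM of the Y-linked gene *Ddx3y* and the others had 0.

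A laminin is a trimer of 1 alpha, 1 beta and 1 gamma chain that is secreted and polymerizes on the cell surface. Nidogens link the laminin network to collagen IV and perlecan, and cells bind it through dystroglycan and through integrins, each an alpha and a beta chain. At the surface of the cerebellum the pial basement membrane anchors the endfeet of radial and Bergmann glia and borders the external granule layer, where GNPs divide. Other basement membranes surround the vessels.

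Among the 44 tested genes, 4 were lower in mutants and 2 were higher when an adjusted p below 0.01 and a log2 fold change past 0.5 were both required (edgeR's quasi-likelihood test, Benjamini-Hochberg adjusted over all 17505 genes tested), and these are the genes termed called here. The lower genes were *Lama5*, *Itga7*, *Itga4* and *Itga8*, and *Lamc3* was among the higher genes. This amounts to 9.09% called lower and 4.55% called higher, against 3.63% and 3.03% of all genes tested and 6.66% in either direction. Without the fold threshold, 6 members were higher and 4 were lower at an adjusted p under 0.01, where the background was 6.55% and 7.24%. The 4 added members were *Nid1*, *Lamb2*, *Dag1* and *Itgb5*, all with positive fold changes.

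The members as a whole lay slightly above the rest of the transcriptome. The sign of the log2 fold change was positive in 32 members and negative in 12, against 8601 and 8904 of all genes tested. Their median was 0.19, against −0.01 over all genes tested. In 18 members every mutant library lay above every control library, and in 8 every mutant library lay below, against a background of 20.4% and 20.1% of genes. Such separation in either direction was found in 59.1% of tested members and in 40.5% of all genes tested. Together the 48 genes took 0.243% to 0.255% of all counts in the controls and 0.284% to 0.287% in the mutants. These ranges did not overlap. *Nid1* was the largest single part of the members' summed level, at 486 to 507 CPM in controls and 695 to 707 CPM in mutants.

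**Figure D1:**
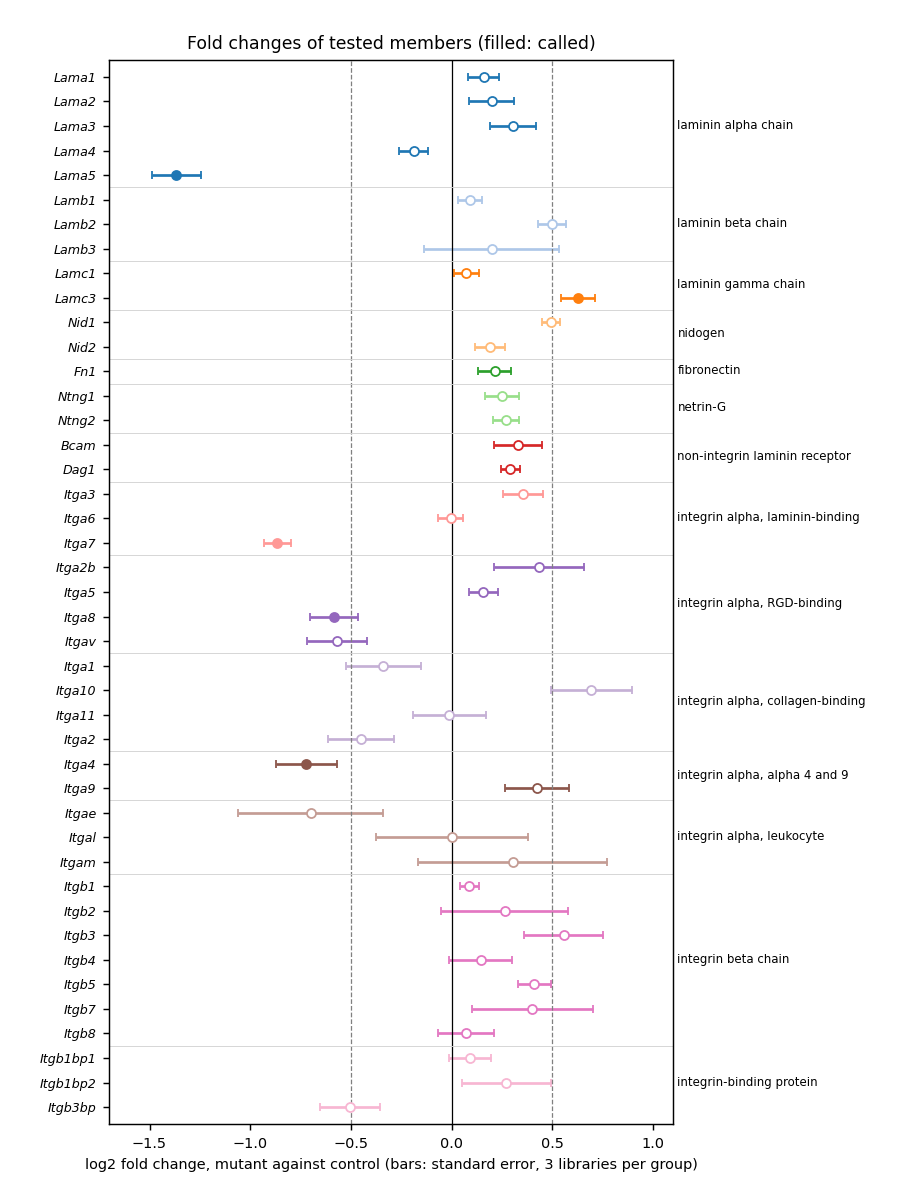
Log2 fold change of the tested genes described here (horizontal axis, mutant against control), grouped by role, with bars for the standard error from 3 libraries per group and filled points for called genes. Dashed lines mark the fold threshold of 0.5 on either side. *Lama5* lies farthest to the left at −1.37, while *Lamb2* (0.50) and *Nid1* (0.49) sit at the threshold without passing it.

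*Lama5*, *Itga4* and *Itga8* are the genes called lower with an entry in the set of RefSeq promoters used here, which had none for *Itga7*. The 250 bases before the RefSeq start site in GRCm38.p6 are shown 5′ to 3′ so that the sequence upstream of each can be compared. Capitals mark every E-box, the letters CANNTG that basic helix-loop-helix factors such as Atoh1 recognize. The motif is its own reverse complement, so both strands were searched at once.
Lama5 chr2:180225860-180226109, minus strand: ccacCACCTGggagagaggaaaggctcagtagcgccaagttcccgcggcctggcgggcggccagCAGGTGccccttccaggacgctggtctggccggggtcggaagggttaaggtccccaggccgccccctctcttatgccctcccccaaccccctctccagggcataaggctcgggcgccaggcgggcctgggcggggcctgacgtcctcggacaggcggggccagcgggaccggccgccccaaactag
Itga4 chr2:79255176-79255425, plus strand: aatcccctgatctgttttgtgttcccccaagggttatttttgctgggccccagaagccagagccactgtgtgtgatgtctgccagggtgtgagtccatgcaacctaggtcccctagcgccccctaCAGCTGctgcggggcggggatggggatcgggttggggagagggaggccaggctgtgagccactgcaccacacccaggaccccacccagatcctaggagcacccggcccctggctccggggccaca
Itga8 chr2:12301945-12302194, minus strand: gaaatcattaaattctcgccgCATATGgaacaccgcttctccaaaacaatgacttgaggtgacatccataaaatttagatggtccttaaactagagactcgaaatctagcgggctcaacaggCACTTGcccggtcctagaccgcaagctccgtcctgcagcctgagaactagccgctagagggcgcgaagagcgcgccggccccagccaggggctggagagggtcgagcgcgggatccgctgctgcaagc
The *Lama5* stretch holds CACCTG once and further on its reverse complement, CAGGTG. At least 2 of that pair occurred in 2.06% of 27025 RefSeq promoters of the same length, and at least 1 in 17.1%. The *Lama5* stretch has no E-box of any other kind, and which kinds Atoh1 binds was not tested. *Itga4* has a single CAGCTG, found in 12.8% of promoters, and *Itga8* has CATATG as well as a second E-box, CACTTG. An E-box of any kind (CANNTG) was present in 66.0% of all promoters and in 22 of the 31 members with an entry, and at least 2 were present in 31.7% of all promoters. The RefSeq start of *Itga8* differs from the start of the gene in the table, while those of *Lama5* and *Itga4* are the same. These matches describe letters only, and binding was not measured here.

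Laminin alpha chains carry the domains that integrins and dystroglycan bind, and among them *Lama5* changed. This gene (ENSMUSG00000015647, chromosome 2, 180176373 to 180225859, minus strand, GRCm38) encodes laminin alpha 5, found in vascular and many epithelial basement membranes. *Lama5* was counted at 59.7, 62.1 and 56.2 CPM in controls 1 to 3 and at 22.5, 18.8 and 27.7 CPM in mutants 1 to 3. The highest mutant library was below the lowest control library by more than the spread within either group. Means were 59.3 ± 2.98 CPM in controls and 23.0 ± 4.43 CPM in mutants (SD, n = 3 each). On the log2 scale *Lama5* changed by −1.37 (SE 0.12, adjusted p = 6.51e-05 by edgeR's quasi-likelihood test). The gene shares no exon bases with another annotated gene, and it was called lower under all 17 alternatives.

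The other alpha chains were not called. *Lama1*, the alpha chain of laminin-111 in early and pial basement membranes, had 68.7, 57.9 and 57.1 CPM in controls and 65.7, 71.0 and 68.3 CPM in mutants, and the groups overlapped (log2 fold change 0.16, adjusted p = 0.176). *Lama4*, a chain of vessel walls like *Lama5*, had 57.2, 64.6 and 63.8 CPM in controls and 53.9, 57.2 and 51.9 CPM in mutants. Its values were slightly lower in mutants, with a log2 fold change of −0.19 and an adjusted p of 0.0794. *Lama2*, the alpha chain whose loss causes a muscular dystrophy, had a log2 fold change of 0.20 (adjusted p = 0.239), and *Lama3*, of epithelial laminin-332, one of 0.31 (adjusted p = 0.0796).

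Because FPKM values are scaled by gene length, they allow chains to be compared within a library, though only roughly. The length used takes in all annotated exon bases of a gene and can exceed that of the transcripts present. This limit holds for every comparison between genes by FPKM here, but not for 1 gene between groups. *Lama5* made up 24.4%, 24.7% and 23.7% of the summed FPKM of the 5 alpha chains in controls 1 to 3 and 10.8%, 8.17% and 12.6% in mutants 1 to 3. *Lama1* took 27.1% to 33.0% in controls and 36.3% to 37.2% in mutants, and *Lama4* 22.1% to 25.4% and 22.3% to 24.5%. By this rough measure *Lama5* and *Lama4* stood at like levels in controls, and *Lama5* was well below *Lama4* in every mutant library. The summed alpha chain FPKM was 20.6 to 21.9 in controls and 18.2 to 20.01 in mutants.

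No beta chain was called by edgeR (1 at an unadjusted p under 0.05), and DESeq2 called *Lamb2*. *Lamb2*, the beta chain of mature vascular, pial and synaptic laminins, was counted at 75.1, 66.5 and 71.4 CPM in controls and at 109, 93.3 and 98.3 CPM in mutants. All mutant libraries were above all control libraries, and the mean moved from 71.0 ± 4.31 to 100.2 ± 8.07 CPM. Its log2 fold change of 0.50 (SE 0.07, adjusted p = 9.28e-04) fell just short of the fold threshold. It was called in 10 of 17 alternatives, 1 of them with no fold threshold, and among the 10 were the fits without control 1 (0.54), control 3 (0.50), mutant 2 (0.56) or mutant 3 (0.51). *Lamb1*, the beta chain of laminin-111, had 112, 116 and 101 CPM in controls and 115, 118 and 118 CPM in mutants (log2 fold change 0.09, adjusted p = 0.294). *Lamb3*, the beta chain of laminin-332, stayed at 1.30 to 2.86 CPM in all libraries and overlapped between groups (log2 fold change 0.20, adjusted p = 0.705).

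Of the gamma chains described here, *Lamc3* rose and *Lamc1* was not called. *Lamc3* (ENSMUSG00000026840, chromosome 2, 31887291 to 31946539, plus strand), the gamma 3 chain of some retinal and cortical basement membranes, had 23.7, 24 and 23.2 CPM in controls and 39.9, 35.1 and 34.4 CPM in mutants. The control libraries were nearly level, and each mutant library was above them. The increase was 0.62 on the log2 scale (SE 0.08, adjusted p = 6.42e-04), and of 17 alternatives the call was lost in the test against the fold threshold itself (edgeR's glmTreat).

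*Lamc1*, the common gamma chain, had 165, 173 and 151 CPM in controls and 181, 162 and 172 CPM in mutants. The groups overlapped, with a log2 fold change of 0.07 and an adjusted p of 0.434.

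Per length, *Lamc1* stood at 19.6 FPKM in controls and 20.7 FPKM in mutants, above *Lamc3* at 3.85 and 5.95 FPKM. *Lamb2* took 47.6% to 52.7% of the beta chain FPKM in controls and 55.9% to 60.2% in mutants. The summed beta chains were at 22.1 to 23.6 FPKM in controls and 27.1 to 29.8 in mutants, so the ranges did not overlap.

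**Figure D2:**
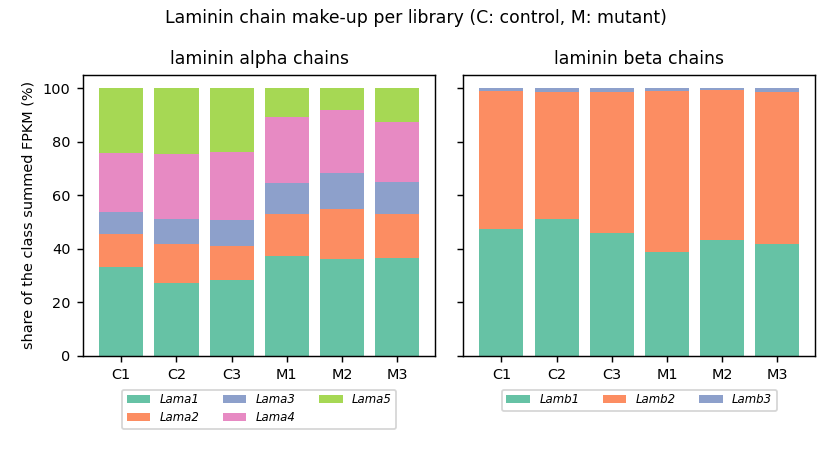
Share of the summed FPKM of the laminin alpha and beta chains (vertical axis, percent) taken by each chain in control libraries C1 to C3 and mutant libraries M1 to M3. The *Lama5* part of the alpha bar shrinks from 23.7% to 24.7% in controls to 8.17% to 12.6% in mutants, and the *Lamb2* part of the beta bar grows from 47.6% to 52.7% to 55.9% to 60.2%.

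Nidogens bridge the laminin network to the collagen IV network. *Nid1* (ENSMUSG00000005397), the most abundant of all members per length at 70.9 ± 1.54 FPKM in controls, was counted at 497, 507 and 486 CPM in controls and at 695, 707 and 695 CPM in mutants. The replicates of each group lay within a few percent of each other and the groups were far apart. The log2 fold change was 0.49 (SE 0.04, adjusted p = 5.44e-05), just under the fold threshold. It was called in 3 of 17 alternatives, which were library size scaling (0.51), the fit without control 2 (0.51) and the threshold set with no fold limit. *Nid2* had 87.0, 88.1 and 74 CPM in controls and 97.0, 89.3 and 97.7 CPM in mutants (log2 fold change 0.19, adjusted p = 0.0903).

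**Figure D3:**
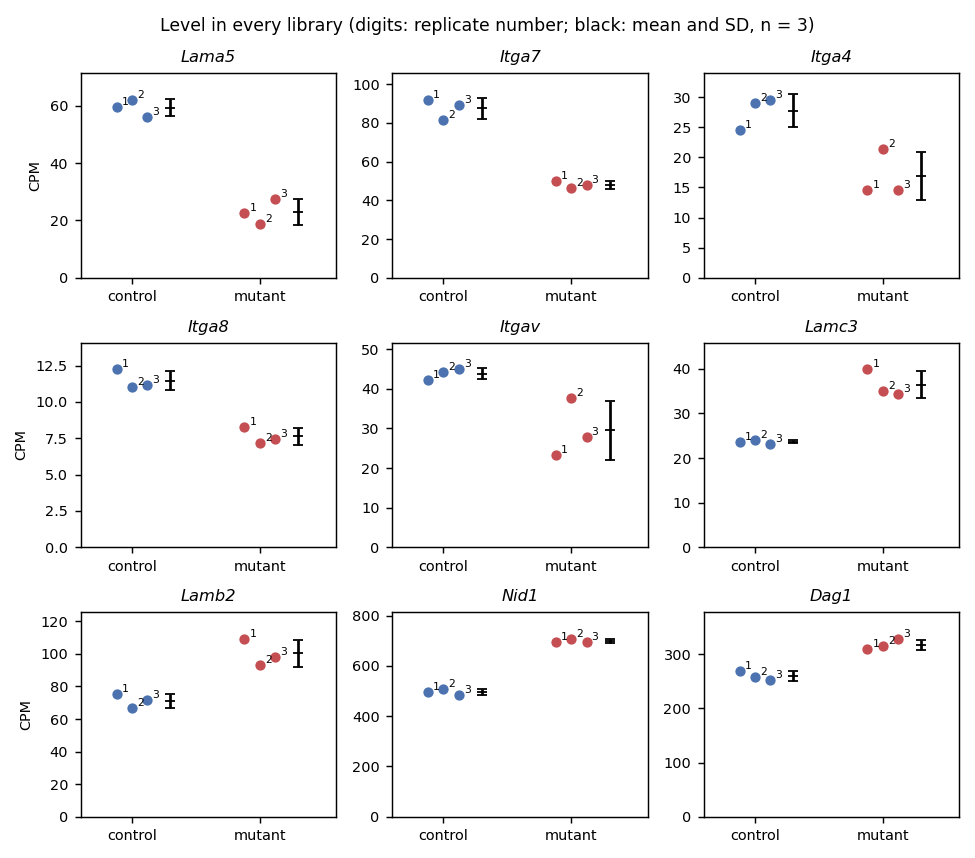
CPM of 9 genes (vertical axes from 0) in the 3 control and 3 mutant libraries, with digits for the replicate number and black bars for the mean and SD (n = 3). *Lama5*, *Itga7*, *Itga4*, *Itga8* and *Itgav* lie lower in every mutant library, with mutant 2 nearest the controls for *Itga4* (21.4 CPM) and *Itgav* (37.7 CPM), and *Lamc3*, *Lamb2*, *Nid1* and *Dag1* lie higher.

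The laminin-binding integrins are formed by *Itga3*, *Itga6* and *Itga7* with *Itgb1* (and *Itga6* also with *Itgb4*). *Itga7* (ENSMUSG00000025348, chromosome 10, 128933818 to 128958282, plus strand), best known as the laminin receptor of muscle, was counted at 91.9, 81.4 and 89.4 CPM in controls and at 50.2, 46.2 and 47.7 CPM in mutants. Every mutant library was far below every control library. The mean went from 87.6 ± 5.50 CPM down to 48.0 ± 2.01 CPM, which is −0.87 on the log2 scale (SE 0.07, adjusted p = 2.47e-05), and the call held in all 17 alternatives.

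In controls *Itga7* was the alpha chain with the highest level per length, at 10.7 FPKM, followed by *Itga6* at 8.84 and *Itga3* at 8.45. It made up 38.4%, 37.4% and 39.0% of the summed FPKM of the 3 laminin-binding alpha chains in controls and 23.1%, 23.3% and 22.9% in mutants. In mutants the order was *Itga3* (10.8 FPKM), *Itga6* (8.84 FPKM) and *Itga7* (5.91 FPKM). *Itga6* had 81.1, 81.6 and 78.7 CPM in controls and 80.6, 85.5 and 74.5 CPM in mutants, with a log2 fold change of −0.01 (SE 0.06, adjusted p = 0.963). *Itga3* had 52.8, 44.3 and 49.0 CPM in controls and 66.9, 53.4 and 66.1 CPM in mutants, barely separated, with a log2 fold change of 0.35 (adjusted p = 0.0268).

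Integrins that bind the RGD sequence of fibronectin, vitronectin and related proteins use *Itga5*, *Itga8*, *Itgav* or *Itga2b*. *Itga8* (ENSMUSG00000026768, chromosome 2, 12106632 to 12301922, minus strand), which pairs with *Itgb1* and binds nephronectin, had 12.2, 11 and 11.2 CPM in controls and 8.31, 7.17 and 7.47 CPM in mutants. The groups did not overlap, and the gene fell by 0.58 on the log2 scale (SE 0.12, adjusted p = 0.00612). This call rests on all 6 libraries, since leaving out any 1 of them ended it, with log2 fold changes from −0.65 to −0.53 and adjusted p from 0.0121 to 0.0273. DESeq2 (adjusted p = 0.0117), both limma fits and glmTreat did not call it either.

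*Itgav*, the vitronectin receptor alpha chain that pairs with several beta chains, showed a drop of like size with more spread. Its counts were 42.2, 44.3 and 44.9 CPM in controls and 23.2, 37.7 and 27.7 CPM in mutants. Mutant 2 lay near the controls and mutants 1 and 3 well below. The log2 fold change of −0.57 (SE 0.15, adjusted p = 0.0188) was not called, but it was in 5 of 17 alternatives, among them DESeq2 (adjusted p = 6.01e-04), the replicate block (−0.59, adjusted p = 0.00367) and the fit without mutant 2 (−0.77, adjusted p = 3.95e-04).

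*Itga5*, the main fibronectin receptor chain, had 30.5, 29.8 and 30.4 CPM in controls and 33.0, 33.2 and 34.8 CPM in mutants. These narrow ranges did not overlap, though the log2 fold change was 0.16 and the adjusted p 0.143. *Itga2b*, the platelet integrin chain, stood at 3.97 to 5.14 CPM in controls and 4.24 to 7.47 CPM in mutants (log2 fold change 0.43, adjusted p = 0.188).

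*Itga4* and *Itga9* form a small family of their own, and *Itga4* was called. *Itga4* (ENSMUSG00000027009, chromosome 2, 79255426 to 79333123, plus strand), which pairs with *Itgb1* or *Itgb7* and binds VCAM1 and fibronectin, had 24.5, 29.1 and 29.5 CPM in controls and 14.6, 21.4 and 14.5 CPM in mutants. Mutant 2 stood above the other mutants but below all controls. The log2 fold change was −0.72 (SE 0.15, adjusted p = 0.00668). The adjusted p passed 0.01 without control 2 (0.0283), control 3 (0.0309), mutant 1 (0.0313) or mutant 3 (0.0315), where the log2 fold change lay between −0.69 and −0.62, and both limma fits and glmTreat also lost the call. In the annotation 8.04% of its exon bases lie opposite exons of *Cerkl*. Exon bases opposite another gene were also found for *Lamc3* (6.27%), *Itgav* (5.9%), *Itga8* (5.05%) and *Itga7* (0.111%). *Itga9*, a receptor for tenascin-C among other ligands, had 10.7, 15.2 and 10.3 CPM in controls and 14.4, 16.4 and 17.8 CPM in mutants (log2 fold change 0.42, adjusted p = 0.0771).

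None of the 4 collagen-binding alpha chains was called by edgeR, DESeq2 or limma (2 at an unadjusted p under 0.05 in edgeR). *Itga1* had 21.5, 36.0 and 27.2 CPM in controls and 18.7, 27.2 and 21.1 CPM in mutants (log2 fold change −0.34, adjusted p = 0.216), overlapping widely. *Itga2*, which lies 21 kb from *Itga1*, was at 5.86 to 7.06 CPM in controls and 4.24 to 5.42 CPM in mutants (log2 fold change −0.45, adjusted p = 0.0701). *Itga10* had a log2 fold change of 0.69 (SE 0.20, adjusted p = 0.0311) at only 2.73 to 5.42 CPM, and 33.5% of its exon bases are shared with *Gm42957* on the same strand, so the 2 genes may have split or lost reads. *Itga11* was level, at a log2 fold change of −0.01 (adjusted p = 0.973).

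The leukocyte alpha chains were near the limit of detection. *Itgae*, *Itgal* and *Itgam* were tested at 0.391 to 2.60 CPM, and in edgeR, DESeq2 and limma none was called or reached an unadjusted p under 0.05, with log2 fold changes of −0.70 (adjusted p = 0.185), 0.00 (adjusted p = 0.997) and 0.30 (adjusted p = 0.677). For *Itgam*, the CD11b chain of microglia, 68.7% of exon bases are shared with *Gm49368*, so its low count is uncertain. The genes below the filter were *Itgax* with 4 to 14 counts, *Itgad* with 0 to 2, and the beta chains *Itgb2l* with 0 to 4 and *Itgb6* with 0 to 3 counts per library. A difference in these 4 was not detectable at this depth.

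*Itgb1*, the common partner of *Itga7*, *Itga8* and *Itga4*, was the dominant beta chain and nearly level. It was counted at 244, 246 and 230 CPM in controls and at 250, 263 and 252 CPM in mutants. The mutant libraries lay just above the controls, with a log2 fold change of 0.09 (SE 0.05, adjusted p = 0.210). By FPKM it made up 78.0% of the beta chains in controls and 75.7% in mutants, and its level per length (58.3 ± 2.16 FPKM in controls) was several times that of any alpha chain.

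*Itgb5*, a partner of *Itgav*, was at 27.1, 28.1 and 31.3 CPM in controls and 39.8, 36.6 and 38.7 CPM in mutants. All mutant libraries were above all controls, and the log2 fold change was 0.41 (SE 0.08, adjusted p = 0.00561), below the fold threshold. It differs in sign from *Itgav*. Further partners of *Itgav* include *Itgb3*, at 2.34 to 2.93 CPM in controls and 3.74 to 4.38 CPM in mutants (log2 fold change 0.56, adjusted p = 0.0670), and *Itgb8*, at 56.8 to 86.2 CPM over both groups (log2 fold change 0.07, adjusted p = 0.752).

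*Itgb4*, the partner of *Itga6* in hemidesmosomes, stood at 6.74 to 9.92 CPM in all libraries (log2 fold change 0.14, adjusted p = 0.546). *Itgb7*, the other partner of *Itga4*, was near 1 CPM, at 0.963 to 1.5 CPM (log2 fold change 0.40, adjusted p = 0.369). *Itgb2*, the leukocyte beta chain, had 1.03 to 2.13 CPM (log2 fold change 0.26, adjusted p = 0.589). All 7 tested beta chains had positive log2 fold changes, apart from *Itgb8* without control 1 (−0.02) or mutant 2 (−0.11), and none was called by edgeR, DESeq2 or limma (2 at an unadjusted p under 0.05 in edgeR). Of 16 tested alpha chains, 3 were called lower (18.75%, against 3.63% of all genes tested) and 9 had negative fold changes. Over all 17505 genes tested, 8904 had negative and 8601 had positive fold changes.

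**Figure D4:**
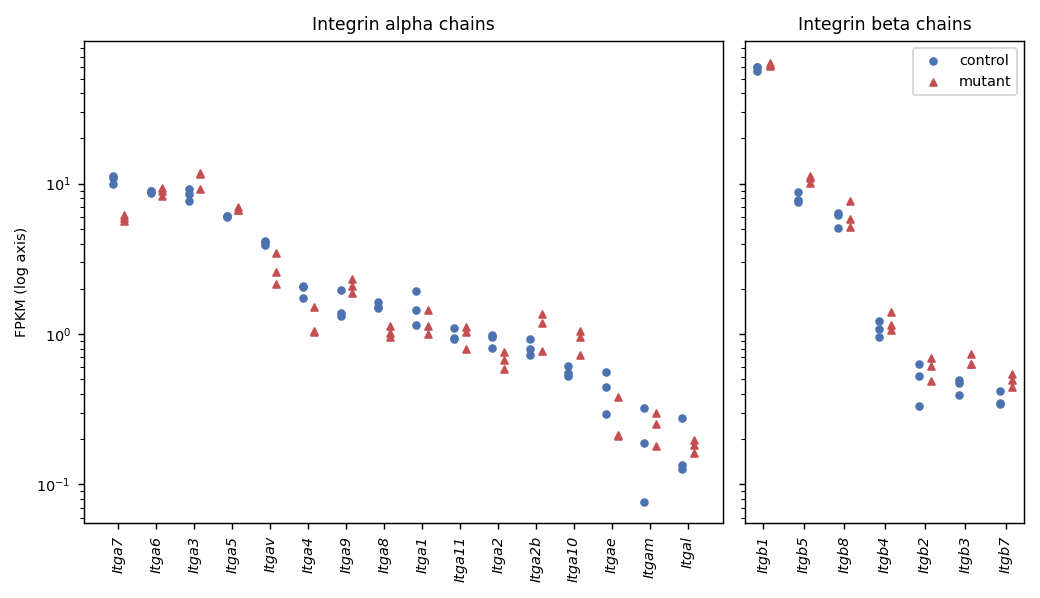
FPKM of the 16 tested integrin alpha chains and the 7 tested beta chains (log axis) in each control (circles) and mutant (triangles) library, ordered by control mean. *Itgb1* lies above all other chains at about the same level in both groups (58.3 and 62.2 FPKM), while *Itga7* leads the alpha chains in controls (10.7 FPKM) and falls below *Itga3* and *Itga6* in mutants (5.91 FPKM).

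Dystroglycan and Bcam bind laminins without being integrins. *Dag1*, which encodes dystroglycan, had 269, 257 and 252 CPM in controls and 310, 314 and 328 CPM in mutants. The groups were clearly separate, with a log2 fold change of 0.29 (SE 0.05, adjusted p = 0.00164) that did not reach the fold threshold. *Bcam*, a surface receptor for laminin alpha 5, had 13.4, 10.9 and 13.6 CPM in controls and 14.8, 15.4 and 17.5 CPM in mutants (log2 fold change 0.33, adjusted p = 0.0697). *Fn1*, which encodes fibronectin, the ligand of *Itga5*, *Itgav* and *Itga4* integrins, had 181, 212 and 188 CPM in controls and 251, 219 and 204 CPM in mutants and overlapped between groups (log2 fold change 0.21, adjusted p = 0.0831).

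The netrin-Gs are membrane-anchored relatives of the laminins found on axons. *Ntng2* had 40.0, 41.2 and 42.1 CPM in controls and 50.4, 48.1 and 50.1 CPM in mutants, separate by a small margin (log2 fold change 0.27, adjusted p = 0.0141). *Ntng1* had a log2 fold change of 0.25 (adjusted p = 0.0575). Of the binding proteins, *Itgb3bp*, which encodes a kinetochore protein also called CENP-R, was at 7.75 to 10.6 CPM in controls and 6.17 to 6.58 CPM in mutants (log2 fold change −0.50, adjusted p = 0.0328). *Itgb1bp1*, an intracellular regulator of beta 1 integrin, and *Itgb1bp2* had log2 fold changes of 0.09 (adjusted p = 0.571) and 0.27 (adjusted p = 0.410).

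Partners of the laminin network in the basement membrane moved in both directions. Of 25 such genes, all tested, 4 were called lower and 1 higher (background 3.63% and 3.03%), and the median log2 fold change was 0.22. Without the fold threshold the balance was the other way, with 8 higher and 4 lower at an adjusted p under 0.01 (background 6.55% and 7.24%). *Ntn4*, which encodes a netrin that binds laminin gamma chains and disturbs laminin polymers, fell from 30.5 ± 1.5 CPM to 11.7 ± 0.432 CPM (log2 fold change −1.38, SE 0.09, adjusted p = 8.27e-06), a drop of the size seen for *Lama5*. *Col15a1* (−1.08, adjusted p = 1.29e-04) and *Col18a1* (−0.64, adjusted p = 1.04e-04), which encode collagens of basement membrane zones, fell, as did *Fbln2* (−0.89, adjusted p = 3.10e-05), a fibulin that binds laminins and nidogens. *Smoc1*, which encodes a secreted calcium-binding protein of basement membranes, rose by 0.69 (adjusted p = 2.17e-05).

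Other ligands of integrins gave 5 called higher and 1 called lower of 19 tested, with a median of 0.23, where the background was 3.03% and 3.63%. *Reln*, which encodes the secreted signal reelin made by granule cells and bound by lipoprotein receptors and integrins, fell from 709 ± 46.0 to 328 ± 34.6 CPM (log2 fold change −1.11, adjusted p = 1.67e-05). The matrix genes *Thbs2* (0.98, adjusted p = 2.17e-05), *Tnr* (0.84, adjusted p = 1.84e-04), *Vtn* (0.69, adjusted p = 1.29e-04) and *Ctgf* (1.5, adjusted p = 0.00132) rose. *Vtn* encodes vitronectin, the ligand of *Itgav* integrins,.

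Inside the cell, the integrin adaptors gave 1 called higher and 0 called lower of 29 tested in edgeR, DESeq2 and limma alike, a share of 3.45% higher that is close to the background of 3.03%, with 5 higher and 3 lower at an adjusted p under 0.01 and 15 at an unadjusted p under 0.05 in edgeR. The called gene was *Lims2*, an ILK-binding adaptor, which rose from 3.93 to 8.99 CPM (log2 fold change 1.19, adjusted p = 6.43e-04). Of 26 tested genes of the dystroglycan complex and its glycosylation, 2 were called higher and 0 lower by edgeR, DESeq2 and limma, with 9 at an unadjusted p under 0.05, and the median was 0.12. These were 7.69% called higher, against 3.03% of all genes. Among the called genes was *Sntb1* (0.78, adjusted p = 0.00187), which encodes a syntrophin, an adaptor of the complex.

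Markers of several cell types moved with the genotype beside these genes. All 7 GNP markers and all 4 tested granule neuron markers were called lower, with summed levels of 1037 to 1119 against 415 to 447 CPM and 777 to 830 against 408 to 423 CPM. Purkinje cell markers were higher in sum (1161 to 1222 CPM in controls, 1627 to 1838 CPM in mutants, 4 of 8 called), as were those of astrocytes and Bergmann glia (3401 to 3455 against 4474 to 4835 CPM, 3 of 9 called) and of the oligodendrocyte lineage (478 to 518 against 639 to 683 CPM, 6 of 8 called). Single markers went the other way, *Lhx1* of the Purkinje list (log2 fold change −0.38, adjusted p = 7.78e-04) and *Pdgfra* of the oligodendrocyte list (−0.45, adjusted p = 3.07e-04), both short of the fold threshold and named after their values were seen. The part of these cell types in the values of the laminin and integrin genes was not tested.

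Cell types that lay down or carry basement membranes were also compared. Meningeal markers summed to 763 to 810 CPM in controls and 950 to 1181 CPM in mutants, with 4 of 10 called higher. Among them *Col1a2* (log2 fold change 0.77), *Col1a1* (0.85) and *Ogn* (1.22) rose, while 3 of the 10 had negative fold changes. Endothelial markers were nearly level at 418 to 465 against 411 to 423 CPM with 0 of 9 called (1 at an unadjusted p under 0.05 in edgeR, and 0 called by DESeq2 or limma). Of the 9, 7 had negative fold changes, and *Kdr* lay below all controls in every mutant library (log2 fold change −0.23, adjusted p = 0.0371). Mural cell markers were at 378 to 405 against 434 to 442 CPM with 0 of 8 called in edgeR (3 at an unadjusted p under 0.05, and 1 called by DESeq2), and microglial markers at 126 to 129 against 160 to 172 CPM with *C1qa* called higher of 9 tested.

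Choroid plexus markers varied most, at 196, 158 and 128 CPM in controls and 217, 33.5 and 773 CPM in mutants. Of the 6 markers, 5 had positive log2 fold changes and were not called, and the median was 1.18. *Otx2* went the other way and was called lower. The log2 fold change of *Lama5* was −1.23 without mutant 2 and −1.52 without mutant 3, and that of *Itga7* −0.83 and −0.86. The part of choroid plexus in these values was not tested. Erythrocyte markers overlapped at 98.7 to 106 and 82.2 to 117 CPM with 0 of 5 called and none at an unadjusted p under 0.05 in edgeR, DESeq2 or limma. Of the markers of neutrophils, lymphocytes and platelets, *Pf4* alone had enough counts to be tested and was called higher (log2 fold change 0.95), and the list summed to 4.43 to 7.94 CPM in controls and 8.72 to 10.3 CPM in mutants.

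**Figure D5:**
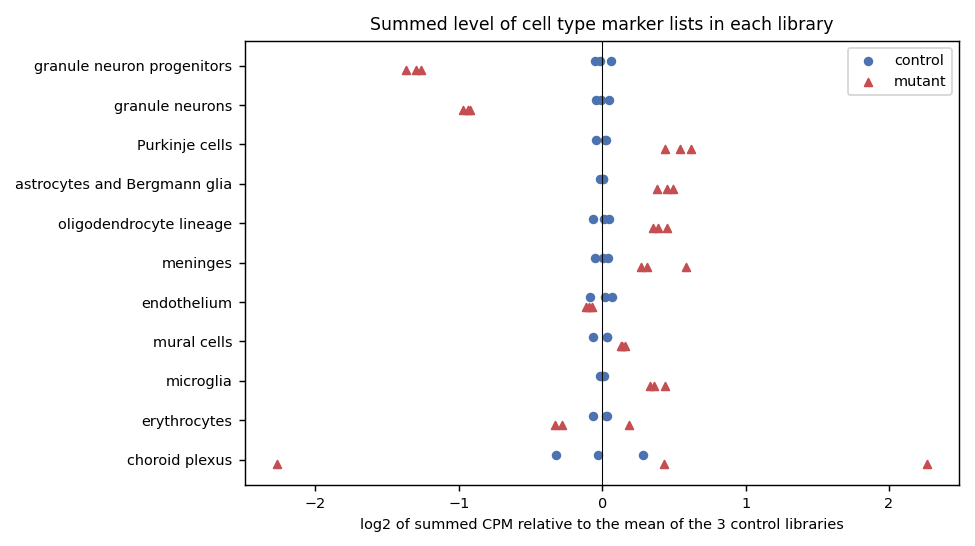
Summed CPM of each cell type marker list in each control (circles) and mutant (triangles) library, as log2 relative to the mean of the 3 control libraries (horizontal axis). GNP and granule neuron lists lie to the left in all mutants, the Purkinje, glial and oligodendrocyte lists to the right, and the endothelial list stays near 0 (411 to 423 CPM against 418 to 465 CPM).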

How the data were processed

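Poly-A RNA from cerebella at postnatal day 1 was analysed in 6 libraries, 3 per group by the labels. The authors deposited raw counts per gene, made with HISAT2 2.0.5 on mm10 and featureCounts 1.5.0-p3, and FPKM values that the authors derived from counts and gene length. Strand setting, annotation release and treatment of multi-mapping reads are not given in the sources used here. All members' coordinates equal GENCODE M21.

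Counts were filtered with filterByExpr (17505 of 54532 genes, 99.8% of counts), TMM-normalized and tested with glmQLFTest in edgeR 4.0.16 (R 4.3.3) with Benjamini-Hochberg adjustment over all genes tested. CPM used TMM-scaled totals. The common dispersion was 0.0105. Same-group libraries differed beyond sampling noise (chi-square per gene 3.64 to 10.1). P-values measure the spread between these libraries, and a permutation of 3 against 3 could not go below 0.1. On simulated counts 198 of 200 changed genes were recovered with 1 false call among 17529. The simulated log2 fold changes were 1 or more, so recovery of changes near the fold threshold was not tested. Every gene was simulated at the common dispersion, and the changed genes were drawn from well-counted ones. Recovery and false calls for genes with more spread or fewer counts were therefore not tested either.

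Members were chosen and named by symbol, and results of a few genes are not reported here. At most 5 called genes with the smallest p were named per pathway list. Members and lists were chosen with earlier results of these data known. Alternatives used DESeq2 1.42.0, limma 3.58.1 on log2(FPKM + 1) and log2(FPKM + 0.1), other scalings, filters and thresholds, a replicate block, a Y-chromosome covariate and each library left out. Sequences came from RefSeq (GRCm38.p6).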

Additional observations from a re-analysis of the deposited data

How the results depend on the processing

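No called result changed direction. Among members that were not called, the log2 fold changes of *Itga11*, *Itga6*, *Itgal*, *Itgam*, *Itgb8* and *Lamb3* changed sign under at least 1 alternative. Calls of *Lama5* and *Itga7* held under all 17 alternatives. Members called higher (2) became 4 with library size scaling, 1 with limma on log2(FPKM + 1), 1 on log2(FPKM + 0.1), 9 at an adjusted p under 0.05 with no fold threshold and 0 with glmTreat, and 2 to 3 with 1 library left out. Members called lower (4) became 2 in each limma fit and 2 in glmTreat, and 2 to 4 with 1 library left out. The members' median of 0.19 became 0.17 with the Y-chromosome covariate, 0.11 with limma on log2(FPKM + 1) and 0.13 to 0.23 with 1 library left out. Over all genes, 530 called higher became 330 with limma on log2(FPKM + 1), 2136 at 0.05, 30 with glmTreat and 349 to 569 with 1 library left out, and 635 called lower became 2252, 145 and 492 to 778. Basement membrane partners called (5) became 14 at 0.05 and 3 with glmTreat, dystroglycan genes (2) became 7 and 0, adaptors (1) became 12 and 0, 2 with the Y-chromosome covariate and 1 to 3 with 1 library left out, and other integrin ligands (6) became 2 with glmTreat. The lower counts in glmTreat follow from its stricter hypothesis, and the cause of the other changes was not tested. Deviations of same-numbered libraries correlated at 0.24, 0.26 and −0.16. The libraries numbered 1 and those numbered 2 matched in *Ddx3y* presence, and those numbered 3 did not. These correlations therefore cannot decide whether replicate numbers pair the libraries. With the replicate block, members called were 2 higher and 5 lower, *Itgav* being the addition, and 561 and 696 genes were called over all. At this depth, genes below the filter could not be compared. Tested genes near or under 1 CPM rest on few counts, such as 6 to 25 per library for *Itgam*, and differences in them may be missed.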

Other observations

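*Itga1* and *Itgb8* were among the members that differed within the groups along with *Ddx3y*. That Y-chromosome gene was counted in control 1, mutant 1 and mutant 3. *Itga1* had 21.5 CPM in control 1 against 36.0 and 27.2 CPM in the other controls, and 18.7 and 21.1 CPM in mutants 1 and 3 against 27.2 CPM in mutant 2. *Itgb8* had 57.1 CPM in control 1 against 70.8 and 69.6 CPM, and 56.8 and 64.6 CPM in mutants 1 and 3 against 86.2 CPM in mutant 2. In each group the lower values were in the libraries with *Ddx3y*. The same order held for *Itgav*, *Lama3* and the called gene *Itga4*. *Itga4* had 24.5 CPM in control 1 against 29.1 and 29.5 CPM in the other controls. In mutants 1 and 3 it had 14.6 and 14.5 CPM against 21.4 CPM in mutant 2. A further fit took the mean level of Y-linked genes, *Ddx3y* among them, as a covariate. In it the log2 fold change between genotypes was −0.18 for *Itga1* and 0.19 for *Itgb8*. For *Itga4* it was −0.61 against −0.72 in the main fit, and the gene was still called. For *Itgav* it was −0.49 against −0.57. Other members had the opposite order, with the higher values in the libraries with *Ddx3y*. Among them were *Itga3*, *Lamb2* and the called genes *Itga7* and *Itga8*. Control 1 alone had *Ddx3y* among the controls, and mutant 2 alone lacked it among the mutants. Either order therefore cannot be told apart from a deviation of 1 library in each group. The pattern of lower values was seen in the data first, and the part of sex in it was not tested.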
